A study of Mus musculus with 18 samples.

Results

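Toll-like receptors and the proteins that work with them were followed as 10 genes in B cells with and without endophilin A2, the membrane-curving protein encoded by Sh3gl1. The genes are a list of names, with no threshold on their values, and were chosen with earlier results of these data known. They are the surface receptors Tlr1, Tlr2, Tlr6 and Tlr4, the receptor-like complex of Cd180 and Ly86, the endosomal receptors Tlr3, Tlr7 and Tlr9, and the transport protein Unc93b1. Each was found in the table of 51912 genes by its Ensembl identifier, and each of the 10 passed the filter on low counts in every comparison. Poly-A RNA was sequenced in 18 libraries in 6 groups of 3. Transitional B cells, the recent emigrants from the bone marrow, and follicular B cells, the main recirculating mature population, were examined without treatment from C57BL/6 mice that were wildtype (WT) or Sh3gl1-/-, and follicular cells of both genotypes were also examined after culture for 14 h by the labels with CD40L, the T-cell ligand of CD40. The Sh3gl1-/- mice lack the gene in every tissue and were compared with WT littermates, so a difference between B cells can arise outside the B cell. No culture without CD40L was among the groups, so the effects of CD40L and of the culture itself cannot be told apart. Age and sex were not given in the labels.

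Toll-like receptors recognise microbial products and signal mainly through the adaptor Myd88. Tlr1 and Tlr6 each pair with Tlr2 to bind bacterial lipopeptides, Tlr4 binds lipopolysaccharide with Ly96 (MD-2), and Tlr3, Tlr7 and Tlr9 sense double-stranded RNA, single-stranded RNA and unmethylated CpG DNA inside endosomes, to which Unc93b1 escorts them. Cd180 (RP105) is a Toll-like protein without the signalling domain. It forms a complex with Ly86 (MD-1) on the surface of B cells, and antibodies against Cd180 make B cells proliferate.

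Tlr1 and Tlr6 lie side by side on chromosome 5 of GRCm38, and part of their coding sequence is nearly the same, which matters for every value given for them. Over 738 aligned coding bases, 732 were identical (99.2%), and the longest stretch shared letter for letter was 229 bases. Of all windows of 100 bases in the coding sequence of Tlr6, 11.2% also occur in Tlr1, and 11.3% of those of Tlr1 also occur in Tlr6. The stretches below are the left edge of the first long shared run, read from the GENCODE M21 transcripts on the minus strand, and capitals mark the 3 bases that differ. All 3 lie in the first 60 bases and 0 in the last 60.
Tlr1, coding exon, chr5:64925826-64925945: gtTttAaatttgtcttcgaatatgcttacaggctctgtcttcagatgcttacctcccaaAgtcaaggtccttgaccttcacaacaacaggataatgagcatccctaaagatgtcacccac
Tlr6, coding exon, chr5:64954117-64954236: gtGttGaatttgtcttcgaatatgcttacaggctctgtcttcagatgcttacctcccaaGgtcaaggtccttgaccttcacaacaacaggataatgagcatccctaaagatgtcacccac

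Reads that fall wholly inside such a run cannot be assigned to 1 of the genes, and the expected counts, which divide them by estimate, were not whole numbers for either gene in 17 of 18 libraries. Cd180 (chr13:102693558-102739629, plus strand) was not whole in 16 libraries. It shares 182 of its 4509 annotated exon bases (4.04%) with Mast4, a kinase gene on the other strand, and whether strand was used in the counting was not stated. Tlr3 (chr8:45395665-45411080, minus strand) shares 381 of 5207 exon bases with Gm45542 on the other strand. Tlr2 (chr3:83836272-83841767), Tlr4 (chr4:66827584-66930284), Tlr7 (chrX:167304929-167330558), Tlr9 (chr9:106222598-106226883), Ly86 (chr13:37345208-37419036) and Unc93b1 (chr19:3935186-3949340) had whole counts in every library.

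Promoters (250 bases before to 50 after an annotated start, from RefSeq on GRCm38.p6) were at hand for 7 of the 10 genes, with the exceptions of Tlr4, Tlr7 and Unc93b1. They were searched on both strands for GGG and CC set 5 bases apart (a loose NF-kB consensus, in 50.8% of 32851 promoters), for a pair of GAAA set 2 bases apart (the interferon-response element ISRE, 3.44%), GAGGAA (a PU.1 and ETS core, 28.3%) and ATGCAAAT (the octamer of B-cell promoters, 1.74%). A match is a description of letters and does not show that a factor binds. The promoters of Tlr6 and Cd180 are shown because these 2 genes differed between the genotypes in the average over cell states. At 1 of its 2 annotated starts Tlr6 had 2 overlapping ISRE matches, read on the opposite strand and given in capitals, and the other start had 1 NF-kB match. Neither of the 2 overlapping Cd180 promoters held any of the 4 motifs. The octamer was found in Tlr9 only, 72 bases before its start.
Tlr6 promoter, chr5:64959117-64959416, minus strand: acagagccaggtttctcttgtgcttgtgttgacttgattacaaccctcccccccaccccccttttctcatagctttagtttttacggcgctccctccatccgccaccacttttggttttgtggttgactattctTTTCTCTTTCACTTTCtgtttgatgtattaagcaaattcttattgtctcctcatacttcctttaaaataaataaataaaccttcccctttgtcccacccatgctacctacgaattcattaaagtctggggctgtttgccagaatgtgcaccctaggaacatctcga
Cd180 promoter, chr13:102693297-102693596, plus strand: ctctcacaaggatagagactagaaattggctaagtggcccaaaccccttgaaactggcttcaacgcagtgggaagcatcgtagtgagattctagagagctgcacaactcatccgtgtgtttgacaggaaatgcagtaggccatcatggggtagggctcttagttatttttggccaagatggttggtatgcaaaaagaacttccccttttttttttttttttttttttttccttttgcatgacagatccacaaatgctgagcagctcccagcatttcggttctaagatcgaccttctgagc

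Total counts per library were between 12404665 and 18366011, and a count of 3, taken as the floor, corresponded to 0.176 to 0.240 CPM, the count scaled to library size. Sh3gl1 itself had 377 to 929 counts in the WT libraries and 1 to 22 in the Sh3gl1-/- libraries. The 5 B-cell markers Ms4a1, Cd79a, Cd79b, Cd22 and Pax5 were above the floor in every library and summed to between 7110 and 16632 CPM. Library 3 of WT and library 2 of Sh3gl1-/- stood apart in each cell state: Xist, the RNA of the inactive X chromosome, had 5421 to 7087 counts in these 6 libraries and at most 120 in the other 12, and the Y-linked Ddx3y had at most 17 counts in the 6 and at least 2919 in the others. Every group thus held 1 library of the first kind. The labels do not say whether libraries with the same number came from the same mouse, and p-values measure the spread between these libraries only.

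Levels were compared between genes per transcript length, as the deposited TPM. Unc93b1 and Ly86 were the highest of the 10 genes in every group, and Cd180 and Tlr1 followed. In WT follicular cells Unc93b1 had 333 ± 4.9 TPM (SD, n = 3) and Ly86 had 407 ± 64.7 TPM, and the libraries of these genes overlapped. Cd180 reached 167 ± 5.4 TPM and Tlr1 116 ± 12.3 TPM, each below the gene before it in every library. Tlr7, at 24.0 ± 7.4 TPM, was the most abundant endosomal receptor. Tlr4, Tlr6 and Tlr2 lay close together at 7.1 ± 1.3, 6.6 ± 1.9 and 5.6 ± 0.7 TPM, and their libraries overlapped from each gene to the next. Tlr9 was low at 2.2 ± 0.5 TPM, overlapping Tlr3 at 1.6 ± 1.1 TPM. The level of Tlr9 rested on 61 to 152 counts per library over all 18 libraries, and that of Tlr3 on 5 to 83. RNA for the transport protein was thus more abundant than that of any receptor it serves, in each of the 18 libraries.

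**Figure D1:**
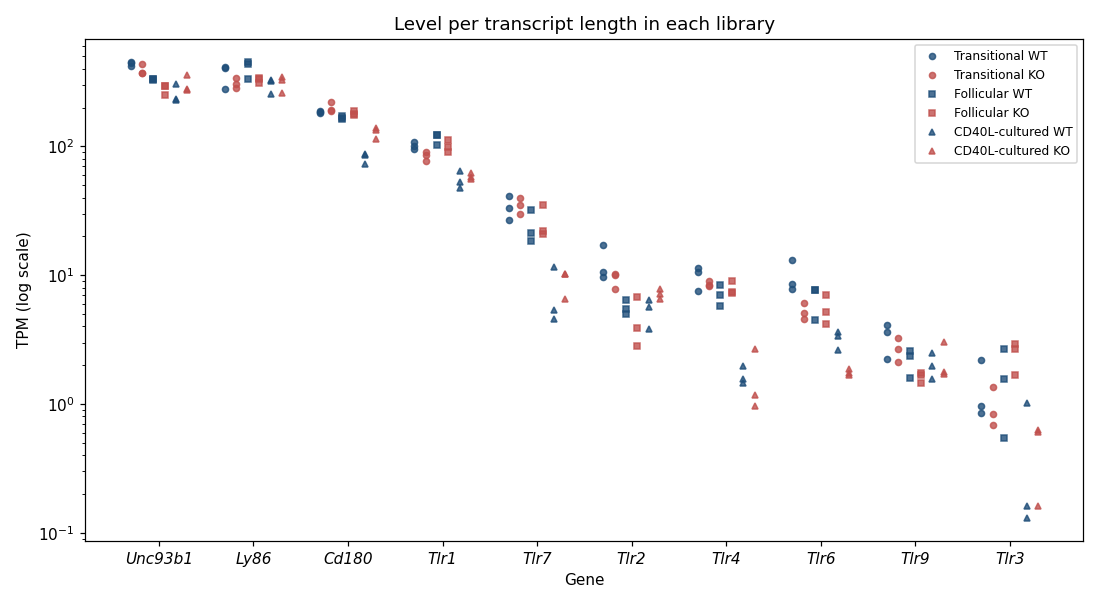
TPM of each gene (log axis) in the 18 libraries, 1 point per library; circles are transitional, squares follicular and triangles CD40L-cultured cells, blue WT and red Sh3gl1-/-. Unc93b1 and Ly86 are at the top in every group (229.6 to 455 and 255 to 449.8 TPM), and Tlr3 has the lowest mean in each group except Sh3gl1-/- follicular cells, where Tlr9 is lower (1.63 against 2.43 TPM).

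After CD40L culture, 6 of the 10 genes were at lower relative levels in WT follicular cells and none at higher ones. The test was the quasi-likelihood F test of edgeR at an adjusted p under 0.05 (Benjamini-Hochberg over 14460 genes). Among all genes tested, 25.7% were lower and 23.6% higher after culture. The median log2 fold change of the 10 genes was -0.83, against -0.08 over all genes. In Sh3gl1-/- cells the same 6 genes (Tlr1, Tlr3, Tlr4, Tlr6, Tlr7 and Cd180) were lower and Tlr2 was higher, where 21.8% of all genes were lower and 20.6% higher. There the median was -0.57, against -0.03 over all genes. In bulk RNA a lower level per cell and fewer cells with the RNA cannot be told apart. CPM is relative to the library, so a lower value need not mean fewer RNA molecules per cell. The 5 B-cell markers also summed lower after culture, to 10773 to 11115 CPM before and 7733 to 8219 CPM after in WT cells. In Sh3gl1-/- cells they summed to 9604 to 10226 CPM before and 7110 to 7205 CPM after.

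Among the surface receptors, Tlr4 fell most. Its normalised counts were 19.4, 24.8 and 23.6 CPM in WT follicular libraries 1 to 3 and 6.1, 7.3 and 5.6 CPM after culture, that is -1.86 on the log2 scale (SE 0.24, adjusted p = 2.7e-05). Without endophilin A2 they were 25.2, 30.3 and 27.1 CPM before and 4.3, 3.5 and 7.8 CPM after culture, that is -2.41 (SE 0.25, adjusted p = 4.3e-06). In both genotypes every cultured library lay below every uncultured one, and the cultured groups overlapped each other. Tlr1 had 189.5, 225 and 229 CPM in WT follicular libraries and 106, 137 and 121 CPM after culture, with log2 fold changes of -0.85 (SE 0.11) in these cells and -0.75 (SE 0.11) in their Sh3gl1-/- counterparts. Tlr6 fell by 0.98 (SE 0.25) on the log2 scale in WT, and without endophilin A2 by 1.40 (SE 0.26). Tlr1 and Tlr6 share reads as described, so their changes are not fully separate measurements. Mean levels were 215 CPM for Tlr1 and 15.4 CPM for Tlr6 in WT follicular cells, and 120 and 4.9 CPM in cultured Sh3gl1-/- cells. A wrongly divided read therefore weighs more on the value of Tlr6, and the size of this error was not tested.

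Tlr2, the common partner of Tlr1 and Tlr6, did not follow them. In WT cells it had 15.6, 13.2 and 12.4 CPM before and 10.9, 17.1 and 16.1 CPM after culture, and the groups overlapped (log2 fold change 0.07, SE 0.26, adjusted p = 0.84). The Sh3gl1-/- values were 7.1, 16.7 and 10.3 CPM before and 17.8, 19.0 and 19.8 CPM after culture (log2 fold change 0.71, SE 0.26, adjusted p = 0.041). The cultured Sh3gl1-/- libraries were all above the uncultured ones, by a narrow margin over library 2. This call was lost on leaving out Sh3gl1-/- follicular library 1 (0.47, adjusted p = 0.16) or 3 (0.65, adjusted p = 0.11), or cultured library 1, 2 or 3 (adjusted p = 0.065, 0.069 and 0.080), and with log2(TPM + 1) and limma (adjusted p = 0.059).

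In the RP105 complex Cd180 was called and Ly86 was not. Cd180 had 255, 254 and 267 CPM in WT follicular libraries and 153, 159 and 140.4 CPM after culture (log2 fold change -0.81, SE 0.09, adjusted p = 8.4e-06). The Sh3gl1-/- libraries had 284, 307 and 288 CPM before and 208, 227 and 240.3 CPM after culture (log2 fold change -0.39, SE 0.09, adjusted p = 0.0034). Ly86, its partner in the complex, was not called in WT (log2 fold change -0.27, SE 0.15, adjusted p = 0.15) or Sh3gl1-/- cells (-0.05, SE 0.15, adjusted p = 0.80). In WT cells Ly86 was called without WT follicular library 1 (-0.39, adjusted p = 0.048) and with log2(TPM + 1) (-0.43, adjusted p = 0.022).

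The endosomal receptors differed among themselves. Tlr7 had 43.3, 41.2 and 68.8 CPM in WT follicular libraries and 9.31, 15.03 and 28.7 CPM after culture (log2 fold change -1.55, SE 0.32, adjusted p = 0.0012), and 56.8, 74.5 and 50.3 CPM in Sh3gl1-/- libraries against 25.1, 18.6 and 23.0 CPM after culture (-1.46, SE 0.32, adjusted p = 0.0022). Library 3 was the highest of its group for WT cells in all 3 states, transitional cells included. Tlr7 is X-linked, and this is the WT library with high Xist counts. The high-Xist library of Sh3gl1-/- cells, library 2, was the highest for Tlr7 in follicular cells only, was below library 1 in transitional cells (88.2 against 93.5 CPM) and was the lowest after culture. Without the 6 high-Xist libraries the log2 fold change was -1.81 (adjusted p = 9.2e-05) in WT and -1.17 (adjusted p = 0.0014) in Sh3gl1-/- cells. Tlr3 fell by 2.08 (SE 0.59) and 2.39 (SE 0.59) on the log2 scale, to 5 to 20 counts per cultured library. Its call in WT cells was lost without the high-Xist libraries (-1.49, adjusted p = 0.096). Tlr9 gave 0.04 (SE 0.28, adjusted p = 0.91) in WT and 0.45 (SE 0.28, adjusted p = 0.22) in Sh3gl1-/- cells. Unc93b1 gave -0.20 (SE 0.12, adjusted p = 0.18) and 0.16 (SE 0.12, adjusted p = 0.31). In WT cells Unc93b1 was called without cultured WT library 2 (-0.33, adjusted p = 0.033) and with log2(TPM + 1) (-0.38, adjusted p = 0.027).

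**Figure D2:**
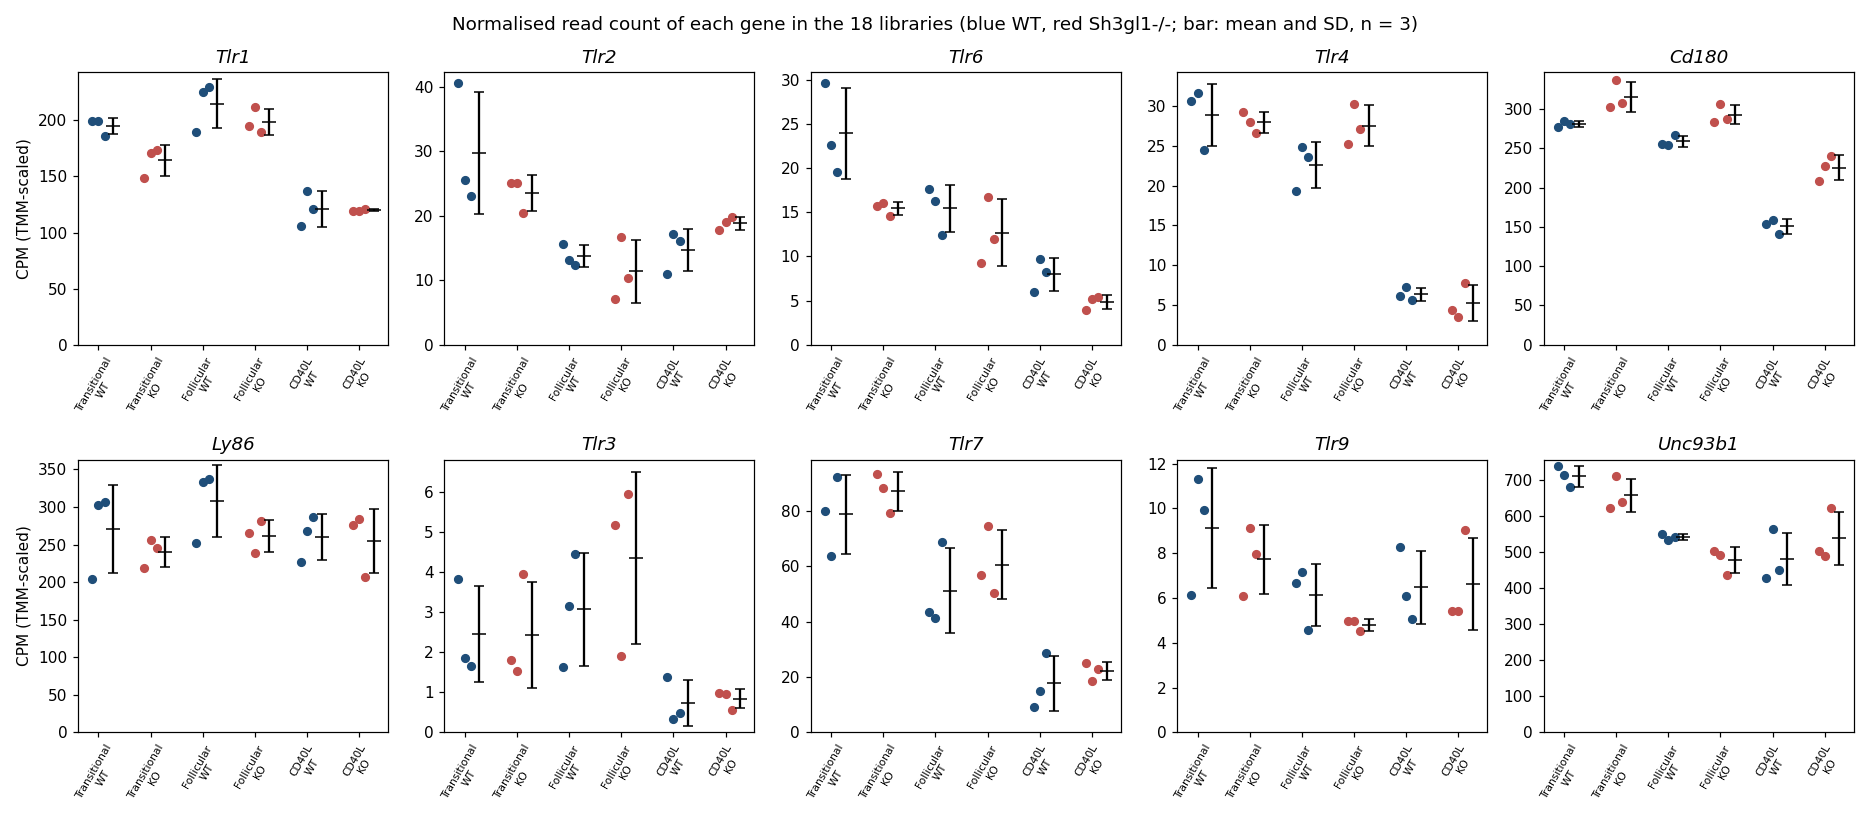
CPM of each gene (linear axes from 0) in each library, grouped by cell state and genotype; blue points are WT and red points Sh3gl1-/- libraries in the order 1 to 3, and bars are the mean and SD (n = 3). Tlr4 drops from 19.4 to 30.3 CPM in follicular to 3.5 to 7.8 CPM in CD40L-cultured cells, and Cd180 separates the genotypes after culture (140.4 to 159 against 208 to 240.3 CPM).

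The summed level of macrophage and monocyte markers was also lower after culture, though not every marker went that way. The 7 genes summed to 117 to 149.7 CPM in WT follicular cells and 122 to 278 CPM in Sh3gl1-/- follicular cells, against 66.1 to 96.4 and 47.5 to 77.7 CPM after culture. Lyz2 fell from 81.9 to 110.8 CPM in WT follicular cells to 4.5 to 6.1 CPM, and C1qa and Fcgr1 were at 0 in the cultured WT libraries. Adgre1 was higher after culture in both genotypes (78 to 153 counts before and 629 to 1173 after in WT, 65 to 131 and 387 to 606 in Sh3gl1-/- cells) and made up most of the sum in cultured WT cells. Cd68 had 9.91 to 12.5 CPM before and 13.4 to 17.004 CPM after culture in WT cells, and 13.7 to 20.4 against 10.1 to 14.7 CPM in Sh3gl1-/- cells. What part such cells have in the change of Tlr4 or the other receptors was not tested.

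The response to CD40L was then compared between the genotypes. The difference of responses was not called for any of the 10 genes, and for 0 of 14460 genes (1278 had an unadjusted p under 0.05, and DESeq2 called 37). Cd180 had the smallest p of the 10 genes: its decrease was smaller in Sh3gl1-/- cells by 0.41 on the log2 scale (SE 0.13, edgeR adjusted p = 0.47). The difference for Tlr2 was 0.64 (SE 0.37, adjusted p = 0.63), for Unc93b1 0.36 (SE 0.17, adjusted p = 0.57) and for Tlr4 -0.55 (SE 0.34, adjusted p = 0.67). A higher Tlr2 in 1 genotype is therefore not shown to differ from the other.

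Between transitional and follicular cells, 4 genes were at lower relative levels in WT follicular cells and none at higher ones. Of all 14580 genes tested, 14.2% were lower and 11.7% higher. The 4 were Tlr2, Tlr6, Tlr7 and Unc93b1. In Sh3gl1-/- cells Tlr2 and Unc93b1 were lower and none higher, where 6.71% of all genes were lower and 3.7% higher. The median log2 fold change of the 10 genes was -0.37 in WT, against 0.03 over all genes, and -0.21 in Sh3gl1-/- cells, against -0.0047 over all genes.

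Tlr2 had 40.6, 25.5 and 23.0 CPM in WT transitional and 15.6, 13.2 and 12.4 CPM in WT follicular libraries, with no overlap (log2 fold change -1.11, SE 0.26, adjusted p = 0.0076). The Sh3gl1-/- libraries had 25.1, 25.1 and 20.4 CPM against 7.1, 16.7 and 10.3 CPM (-1.05, SE 0.27, adjusted p = 0.020), a call that was lost without transitional Sh3gl1-/- library 1 or 2 (adjusted p = 0.062 and 0.067) or follicular library 1 or 3 (adjusted p = 0.077 and 0.085). Unc93b1 had 737, 713 and 678 CPM in WT transitional and 549.7, 532 and 540.3 CPM in WT follicular libraries (-0.38, SE 0.07, adjusted p = 0.0019). The Sh3gl1-/- libraries had 621, 709 and 639 CPM against 503, 491 and 436 CPM (-0.47, SE 0.07, adjusted p = 0.00081). No library of the later stage reached the earlier one in either genotype.

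Tlr7 fell by 0.62 (SE 0.19, adjusted p = 0.030) on the log2 scale in WT cells, from 80.1, 63.9 and 92.2 CPM to 43.3, 41.2 and 68.8 CPM, and these ranges overlapped. The call was lost without WT transitional library 1 or 3 (adjusted p = 0.071 and 0.11) or WT follicular library 1 or 2 (adjusted p = 0.12 for each), in 1 fit over 18 libraries (adjusted p = 0.13) and with log2(TPM + 1) (adjusted p = 0.15). Without the high-Xist libraries it was -0.78 (adjusted p = 0.0044). Tlr7 gave -0.53 (SE 0.19, adjusted p = 0.096) in Sh3gl1-/- cells, with the replicate number as a block -0.55 (adjusted p = 0.0066). It was also called by DESeq2 (adjusted p = 0.041), among all genes with at least 1 count (adjusted p = 0.00025), without the high-Xist libraries (-0.69, adjusted p = 0.017) and without WT follicular library 3, which enters the fit through its spread (adjusted p = 0.039). Tlr6 gave -0.62 (SE 0.21, adjusted p = 0.042) in WT cells, from 29.6, 22.6 and 19.6 CPM to 17.6, 16.3 and 12.4 CPM. This call was lost on leaving out any of 8 single libraries (WT transitional 1 or 2, Sh3gl1-/- transitional 1, 2 or 3, WT follicular 1, 2 or 3; adjusted p = 0.052 to 0.17), in 1 fit over 18 libraries (adjusted p = 0.058) and with log2(TPM + 1) (adjusted p = 0.16), and was at an adjusted p of 0.050 without the high-Xist libraries. Tlr9 gave -0.56 (SE 0.26, adjusted p = 0.13) in WT cells, or -0.78 (adjusted p = 0.037) without transitional library 1, and -0.69 (SE 0.26, adjusted p = 0.11) in Sh3gl1-/- cells. Tlr4 gave -0.35 (SE 0.13, adjusted p = 0.064) in WT cells, or -0.46 (adjusted p = 0.028) without transitional library 3. It was also called under 1 of the 8 alternative settings that keep or drop more than a single library. Cd180, Ly86, Tlr1 and Tlr3 were not called in either genotype, although DESeq2 called Tlr1 in Sh3gl1-/- cells (0.27, adjusted p = 0.039).

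**Figure D3:**
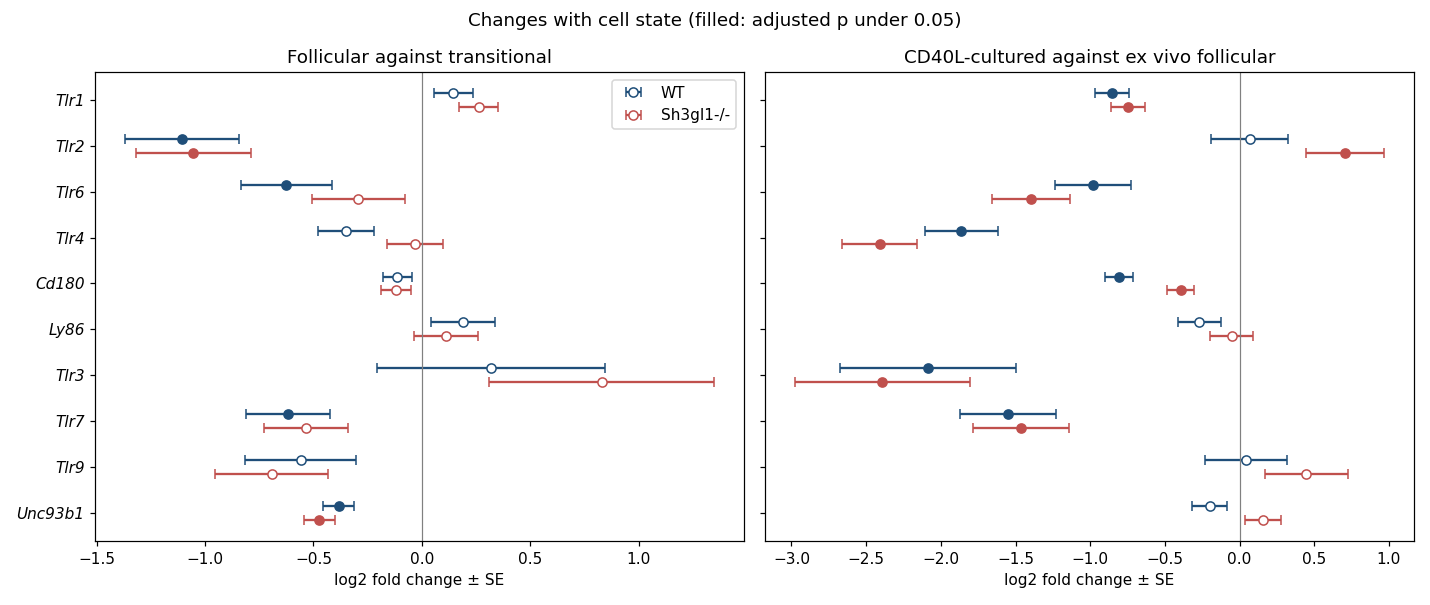
Log2 fold changes with SE of each gene from transitional to follicular cells (left) and from follicular to CD40L-cultured cells (right), in WT (blue) and Sh3gl1-/- (red) cells; filled points have an adjusted p under 0.05. Tlr2 and Unc93b1 are filled in both genotypes on the left, and Tlr4, Tlr3, Tlr7, Tlr6, Tlr1 and Cd180 on the right.

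The step from transitional to follicular cells was not called as different between the genotypes for any of the 10 genes. It was called for 10 of 14580 genes (0.0686%), and for 99 with the replicate block. The macrophage and monocyte list moved with this step as well: its 7 markers summed to 530.3 to 640.1 CPM in WT and 486 to 856 CPM in Sh3gl1-/- transitional cells, against 117 to 149.7 and 122 to 278 CPM in follicular cells. Csf1r had 585 to 1223 counts per transitional library and 73 to 151 per follicular library. The part of these cells in the decrease of Tlr2 was not tested.

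Loss of endophilin A2 was compared within each cell state. None of the 10 genes was called in transitional cells (background 3.73% of 13774 genes), follicular cells (0.845% of 13610) or CD40L-cultured cells (0.0227% of 13188). At an unadjusted p under 0.05 there were 2 of the 10 in each state, against 2996 of all 13774 genes in transitional, 1481 of 13610 in follicular and 932 of 13188 in cultured cells. The groups did not overlap for 3 of the 10 genes in each state, against 28% of all genes in transitional, 16% in follicular and 13.8% in cultured cells. The exact permutation test of 3 libraries against 3 cannot give less than p = 0.1. With 1 genotype coefficient over the 18 libraries and a term for cell state, 492 of 15117 genes (3.25%) were called, and Cd180 and Tlr6 were among them. This fit treats the 18 libraries as independent, although libraries of the same number may come from 1 mouse. Neither gene was called when the counts of each number were summed over the states, which leaves 1 unit per number and genotype.

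Cd180 had higher levels in the Sh3gl1-/- libraries of each state. Its ranges did not overlap in any state: 277 to 285 CPM in WT against 302 to 337 CPM in Sh3gl1-/- transitional cells, 254 to 267 against 284 to 307 CPM in follicular cells, and 140.4 to 159 against 208 to 240.3 CPM in CD40L-cultured cells. On the log2 scale edgeR gave 0.17 (SE 0.08, adjusted p = 0.25) in transitional, 0.18 (SE 0.07, adjusted p = 0.40) in follicular and 0.61 (SE 0.12, adjusted p = 0.27) in cultured cells. Averaged over the states it was 0.31 (SE 0.06, adjusted p = 0.0069), an increase of 23.8%, and it was called on leaving out each of the 18 libraries in turn. Each of these fits keeps the other libraries of the same number. Cd180 was not called without the CD40L-cultured libraries (0.18, adjusted p = 0.070), without the high-Xist libraries (0.27, adjusted p = 0.099) or when the counts of each number were summed over the states (0.31, adjusted p = 0.094). In cultured cells alone DESeq2 called it (0.59, adjusted p = 0.0079). Mast4, which overlaps it on the other strand, gave 0.37 (SE 0.08, adjusted p = 0.045) in transitional, 0.10 (SE 0.09, adjusted p = 0.78) in follicular and 0.31 (SE 0.17, adjusted p = 0.75) in cultured cells, and what part its reads have in Cd180 was not tested. Ly86 gave -0.15 (SE 0.09, adjusted p = 0.42) on average.

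Tlr6 had lower mean levels in the Sh3gl1-/- libraries of each state. Transitional cells had 29.6, 22.6 and 19.6 CPM in WT and 15.7, 16.1 and 14.6 CPM in Sh3gl1-/- libraries, a difference of -0.63 on the log2 scale (SE 0.17, adjusted p = 0.071). CD40L-cultured cells had 6.0, 9.8 and 8.2 CPM in WT and 4.0, 5.2 and 5.4 CPM in Sh3gl1-/- libraries (-0.68, SE 0.27, adjusted p = 0.68). Neither pair of groups overlapped, while follicular cells did, with 17.6, 16.3 and 12.4 against 9.3, 16.8 and 11.9 CPM (-0.28, SE 0.23, adjusted p = 0.75). The average over states was -0.54 (SE 0.13, adjusted p = 0.029). It was not called without transitional WT library 1, transitional Sh3gl1-/- library 1 or 3, follicular Sh3gl1-/- library 1, or cultured WT library 2 or Sh3gl1-/- library 1 (adjusted p = 0.055 to 0.065), without the CD40L-cultured libraries (-0.45, adjusted p = 0.13) or with counts summed over the states (-0.46, adjusted p = 0.25). In transitional cells DESeq2 called it (-0.64, adjusted p = 0.017). Tlr1, with which Tlr6 shares reads, gave -0.12 (SE 0.06, adjusted p = 0.31) on average, and -0.25 (SE 0.09, adjusted p = 0.15) in transitional cells.

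**Figure D4:**
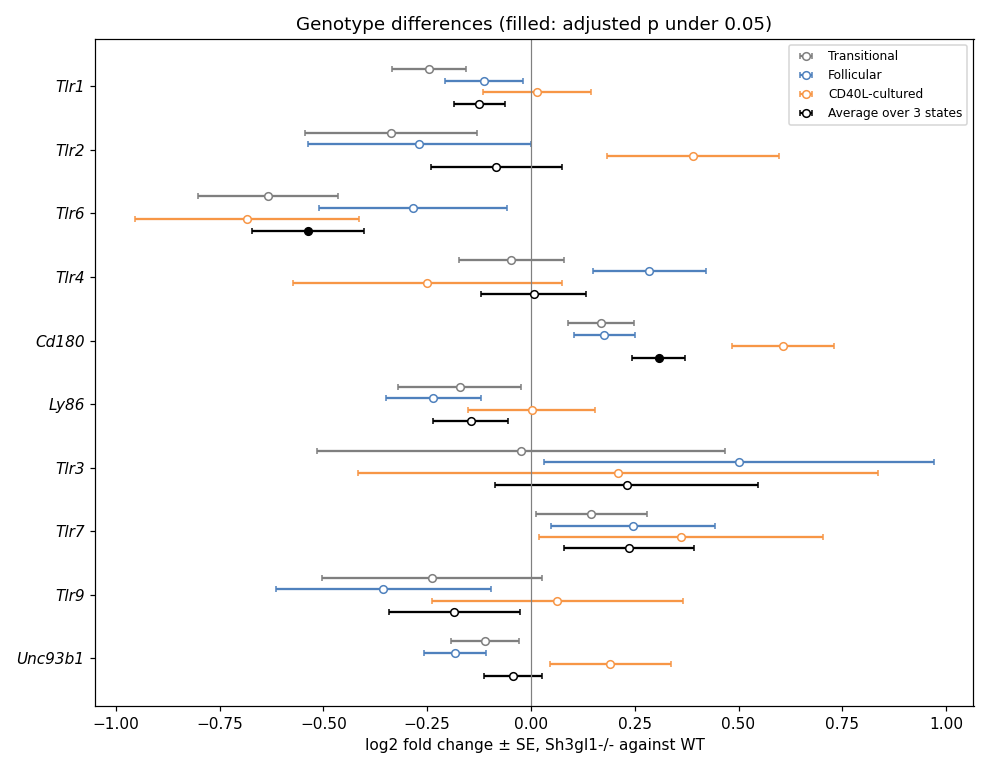
Log2 fold change with SE of Sh3gl1-/- against WT cells for each gene in transitional (grey), follicular (blue) and CD40L-cultured cells (orange) and averaged over the 3 states (black); filled points have an adjusted p under 0.05. Only the averages of Cd180 (0.31) and Tlr6 (-0.54) are filled.

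The other 8 genes gave averages between -0.18 (Tlr9) and 0.24 (Tlr7), with none called. For Tlr7 the 95% interval of the average was -0.07 to 0.54, for Tlr4 -0.24 to 0.26 and for Unc93b1 -0.18 to 0.09, so that changes of these sizes were not resolved. Some markers of other cells differed between the genotypes, not all of them in every state. The 8 neutrophil markers summed to 53.2 to 98.3 CPM in WT and 116 to 578 CPM in Sh3gl1-/- transitional cells, 64.4 to 179.9 against 184 to 819 CPM in follicular cells, and 9.8 to 40.2 against 52.9 to 197 CPM in cultured cells. Of the 4 plasma cell markers, which summed to 492 to 719 against 1146 to 4592 CPM in transitional cells, Jchain carried the difference (406 to 648 against 1065 to 4513 CPM), while the ranges of Sdc1, Prdm1 and Irf4 overlapped. The 3 transitional B-cell markers summed to 872 to 1008 against 505 to 801 CPM in transitional cells, and the 4 marginal zone markers to 293 to 326 against 177 to 224 CPM. In the first list Cd24a was lower (309 to 397 against 163 to 246 CPM). Cd93 overlapped, with a higher mean in Sh3gl1-/- cells (64.8 against 75.4 CPM). Cd1d1 made up most of the marginal zone sum (216 to 246 against 131 to 159 CPM). Asb2 overlapped and had a higher mean in Sh3gl1-/- cells (1.9 against 3.1 CPM). In follicular cells the 7 T and NK cell markers summed to 140.4 to 159.9 against 205 to 221 CPM, and the 5 B-cell markers to 10773 to 11115 against 9604 to 10226 CPM. The T and NK cell sums overlapped in transitional cells (130 to 157 against 134 to 163 CPM) and in cultured cells (60.8 to 99.7 against 76.3 to 95.7 CPM). In transitional cells the B-cell sums overlapped narrowly (14374.5 to 16631.8 against 11015.6 to 14415.8 CPM). After culture the B-cell markers summed to 7733 to 8219 against 7110 to 7205 CPM. Cd22, 1 of these 5 markers, did not go this way in follicular or cultured cells. Its means were 774 against 809 CPM in follicular and 398 against 451 CPM in cultured cells, and the ranges overlapped. In transitional cells Cd22 was lower, at 897 to 998 against 699.5 to 791 CPM. What part the cells behind all these markers have in the differences of Cd180 and Tlr6 was not tested.

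The other genes of the pathway were counted as a list of 38, which holds the remaining Toll-like receptors, accessory proteins, trafficking and processing factors, adaptors with their kinases and transcription factors, and brakes. After CD40L culture 33 of them were tested, and 8 were higher and 9 lower in WT cells, with 8 higher and 11 lower in Sh3gl1-/- cells. Over all genes 23.6% were higher and 25.7% lower in WT, and 20.6% and 21.8% in Sh3gl1-/- cells, so the WT counts lie near the background. The list's median log2 fold changes were -0.05 and 0.02, against -0.08 and -0.03 over all genes. The brake Tnfaip3 (A20), a deubiquitinase, rose by 3.69 (SE 0.23) on the log2 scale in WT cells and by 3.32 (SE 0.23) in Sh3gl1-/- cells. The TRIF-arm adaptors Ticam1 and Ticam2 also rose, by 1.94 (SE 0.18) and 3.61 (SE 0.35) in WT cells and by 1.52 (SE 0.18) and 3.01 (SE 0.33) in Sh3gl1-/- cells. Irf7, the transcription factor that drives interferon genes downstream of Tlr7 and Tlr9, fell by 4.18 (SE 0.39) and 3.99 (SE 0.39). The endosomal protease Lgmn, which cleaves these receptors, fell by 1.35 (SE 0.14) and 1.39 (SE 0.14), and the chaperone Hsp90b1 (gp96), needed to fold them, rose by 1.12 (SE 0.10) and 0.74 (SE 0.10). Myd88 rose by 0.43 (SE 0.11, adjusted p = 0.0062) and 0.37 (SE 0.11, adjusted p = 0.019). Irf5, another factor downstream of Myd88, rose by 0.65 (SE 0.13) and 1.20 (SE 0.13). Ly96, the Tlr4 partner, gave -0.29 (SE 0.21, adjusted p = 0.27) and 0.39 (SE 0.21, adjusted p = 0.15). Cd14, the lipopolysaccharide carrier of myeloid cells, had 3 to 38 counts per follicular library and 0 to 6 after culture, too few for a fold.

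From transitional to follicular cells 34 of the 38 were tested, and 4 were higher and 16 lower in WT cells, against 0 higher and 9 lower in Sh3gl1-/- cells. The shares over all genes were 11.7% and 14.2% in WT, and 3.7% and 6.71% in Sh3gl1-/- cells. The medians were -0.36 and -0.14, against 0.03 and -0.0047 over all genes. The protease Ctsb fell by 1.83 (SE 0.14) and 1.81 (SE 0.14). The chaperone Hsp90b1 fell by 0.69 (SE 0.07) and 0.37 (SE 0.07). Cd14 fell by 3.89 (SE 0.63) and 3.22 (SE 0.58), from 76 to 310 counts per transitional library to 3 to 38 per follicular library. Of the other receptors, Tlr12 fell by 1.97 (SE 0.31) and 1.32 (SE 0.30) and Tlr13 by 3.04 (SE 0.71) and 2.45 (SE 0.65), and Tlr8 went from 17 to 34 counts per library to 6 to 17 in WT and from 63 to 76 to 2 to 3 in Sh3gl1-/- cells. The macrophage and monocyte markers moved alongside, as given above. Cd36, a lipid scavenger receptor that also aids Tlr2 with Tlr6, fell by 1.34 (SE 0.21) in WT cells. Irak1, a kinase recruited by Myd88, rose by 0.49 (SE 0.08, adjusted p = 0.00081) in WT cells. Myd88 gave -0.21 (SE 0.09, adjusted p = 0.095) and -0.10 (SE 0.09, adjusted p = 0.55), and Ly96 gave -0.39 (SE 0.18, adjusted p = 0.13) and fell by 0.81 (SE 0.19, adjusted p = 0.011).

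Between the genotypes the list held 0 higher and 3 lower of 34 tested genes in transitional cells, and 0 and 1 of 33 in follicular cells. It held 0 and 0 of 31 in cultured cells, and 1 higher and 1 lower of 34 in the average. Over all genes, in either direction, 3.73% were called in transitional, 0.845% in follicular and 0.0227% in cultured cells, and 3.25% in the average. The list's medians were -0.08, 0.03, 0.05 and -0.0061, against 0.02, -0.0029, 0.01 and 0.0040 over all genes. Cd36 was lower without endophilin A2 in transitional cells (-1.97, SE 0.17, adjusted p = 0.0024), with 128, 152 and 183 CPM in WT and 45.1, 42.1 and 30.6 CPM in Sh3gl1-/- libraries. It was also lower in follicular cells (-1.19, SE 0.21, adjusted p = 0.025) and on average (-1.45, SE 0.20, adjusted p = 0.00024). In cultured cells it had 104, 182 and 163 CPM in WT and 116, 36.9 and 45.1 CPM in Sh3gl1-/- libraries, and the groups overlapped. Pik3ap1 (BCAP), an adaptor between Toll-like receptors and PI3-kinase, and the brake Tollip were lower in transitional cells (-0.42, SE 0.09, adjusted p = 0.040, and -0.42, SE 0.10, adjusted p = 0.0495). The endosomal protease Ctsl was higher on average (0.65, SE 0.15, adjusted p = 0.017). Myd88 gave -0.16 (SE 0.06, adjusted p = 0.17) on average.

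Genes whose pattern over the 18 libraries was most like that of a member were ranked by Pearson's r of log2 CPM among 11746 protein-coding genes. These coefficients share the library structure and the steps between cell states, so r of the deviations from the group means is given beside each. Tlr7 was most like Oasl2 (r = 0.97, deviations 0.90), Itih5 (0.97, 0.78) and Xaf1 (0.96, 0.70). Oasl2, an interferon-induced gene, had 22.2, 23.1 and 37.1 CPM in WT transitional, 13.1, 12.8 and 19.5 CPM in WT follicular and 0.4, 1.9 and 4.2 CPM in cultured WT libraries, with library 3 highest each time as for Tlr7. Irf7 showed the same order in library 3, with 100.2, 52.2 and 3.9 CPM in the 3 states. For Cd180, Wdr81 was among the 3 most alike (0.96, 0.65). Unc93b1 was most like Heatr6 (0.91, 0.56), Pigz (0.89, 0.62) and Glmp (0.89, 0.74), and Tlr9 was most like Gfod1 (0.83, 0.71), Prrc1 (0.81, 0.66) and R3hdm4 (0.80, 0.77).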

How the data were processed

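The deposited table holds expected counts per gene, which the authors estimated with RSEM and did not normalize, and TPM, the authors' values per transcript length; the 18 columns of their FPKM were not used. The submitters' processing notes list cutadapt 1.9.1, STAR 2.5.2a and RSEM 1.3.0 with GRCm38, whereas the methods name TopHat and Cufflinks, and the library kits named also differ (a stranded KAPA kit in the labels, SMART-Seq HT and Nextera XT in the methods). The labels give 14 h with CD40L, the methods an overnight culture and the figure legends a full day, so the length of the culture is uncertain. Columns were matched to libraries by name.

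Counts were rounded and tested with R 4.3.3, edgeR 4.0.16 and limma 3.58.1 (TMM, filterByExpr by group, glmQLFit, glmQLFTest), with p-values adjusted over all genes tested. Symbols came from Ensembl identifiers. SE is the log2 fold change over the square root of F. CPM used TMM-scaled sizes over 18 libraries, and log2 CPM a prior count of 2. Genotypes were compared within each state and with 1 coefficient over 18 libraries, and states in fits of 12 libraries. Replicates differed by more than sampling noise (chi-square per degree of freedom 9.48 to 49.7).

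Same-numbered transitional and follicular libraries deviated together in both genotypes (r = 0.103 to 0.263), as did WT follicular and cultured libraries (0.136 to 0.224), but not all Sh3gl1-/- ones (0.030 to 0.119). This pairing comes from the data, since the labels do not state it.

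The members and lists were chosen with earlier results of these data known. All 10 members are named; of other pathway genes up to 6 per comparison, those of lowest adjusted p under 0.05, with Myd88, Ly96 and Cd14; Tlr13 was chosen after their values were seen, as were values of Irf5, Xist, Ddx3y, Mast4 and Oasl2. Alternatives were DESeq2 1.42.0, RLE size factors, all genes with at least 1 count, at least 10 counts in every library, the replicate block, 1 fit over 18 libraries, log2(TPM + 1) with limma, and leaving out each library. Voom with an estimated correlation, counts summed over states, and leaving out cultured or high-Xist libraries were added after the data were seen. The scripts were tested on simulated data. Floors and intervals cover counting or replicate error only. Some marker genes and genes of similar pattern are not reported here, and the marker sums leave such markers out.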

Additional observations from a re-analysis of the deposited data

How the results depend on the processing

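For the 10 genes, 0 results reversed. Under the alternatives 1758 of the log2 fold changes kept their direction and their side of the threshold, 39 were no longer called, 18 became called, and 80 uncalled ones changed sign. With DESeq2 in place of edgeR, 4 genes were called from transitional to follicular Sh3gl1-/- cells (2 as reported; Tlr1 and Tlr7 were added), 1 for genotype in cultured cells (Cd180) and 1 in transitional cells (Tlr6). Testing all genes with at least 1 count also called 1 gene in each of these 2 states, and 1 fit over 18 libraries called 1 in cultured cells. From transitional to follicular WT cells 2 genes were called in 1 fit over 18 libraries and 2 with log2(TPM + 1), against 4. For the average over states, 0 genes were called with summed counts, 0 without the cultured libraries and 1 without the high-Xist libraries (Tlr6), against 2; voom with the estimated correlation of same-numbered libraries (-0.02) called 2. Leaving out each library in turn gave 1 to 3 calls for the transitional to follicular step in Sh3gl1-/- cells, 2 to 4 in WT cells, and 1 to 2 for the average. The cause was not tested.

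With the replicate block 2 genes were called for the average over states (Cd180 0.31, adjusted p = 0.010; Tlr6 -0.54, adjusted p = 0.027), and 3 from transitional to follicular Sh3gl1-/- cells, Tlr7 being the addition; the block changed no other call of the 10 genes. In the average the block joins libraries of the same number across the genotypes. It therefore cannot account for libraries of different states that may come from 1 mouse. Same-numbered WT and Sh3gl1-/- libraries of a state did not deviate together (r = -0.09 to 0.10). Over all genes the genotype calls depended more on the settings: in transitional cells 514 genes were called as reported, 1361 with DESeq2, 1426 with all genes of at least 1 count, 90 with the block, 144 in 1 fit over 18 libraries, 182 with log2(TPM + 1), and 28 to 479 without single libraries. In follicular cells these were 115, 355, 602, 212, 49 and 64, with 255 without the high-Xist libraries and 32 to 112 without single ones. In cultured cells they were 3, 79, 216, 21 and 82, with 11 without the high-Xist libraries and 1 to 9 without single ones. The average gave 492, 896 and 1186, 111 with summed counts, and 335 to 660 without single libraries. The difference of CD40L responses gave 0, 37 and 210 (2 without the high-Xist libraries), and that of the maturation steps 10, 365 and 462, 24 with at least 10 counts, 99 with the block, 0 to 23 without single libraries, and 0 in 1 fit, with log2(TPM + 1) or without the high-Xist libraries. The transitional to follicular step in Sh3gl1-/- cells gave 1518, and 841 without the high-Xist libraries. Depth limits Tlr3, with 5 to 20 counts per cultured library, and also Tlr9 (61 to 152 counts over all libraries), Tlr4 (44 to 124 after culture) and Tlr6 (56 to 146 after culture).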
